A study of Mus musculus with 2 samples.

Results

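Cyclic nucleotide phosphodiesterases were followed in single islet cells of mice, as the 10 genes Pde1c, Pde3a, Pde3b, Pde4b, Pde4d, Pde5a, Pde7b, Pde8a, Pde8b and Pde10a out of 32285 genes in the count tables. They were chosen by name, and each symbol matched 1 row. The droplet libraries came from islets of mice labelled DIO that had received an agent labelled CDS at 10 mg/kg, or saline, for 2 weeks. An alpha2A-adrenergic receptor antagonist is the subject of the series title, but no label links it to CDS. With 1 library in each group there was no replicate to check a difference against, so no p-value is given and all 95% intervals cover counting error only. Age, strain and sex, the number of mice behind a library and any pooling are not given in the labels, and no cell sort is stated. After a collagenase digestion through the pancreatic duct, islets were picked under a stereomicroscope.

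The CDS library held 7268 cell barcodes and 141191447 UMIs (unique molecular identifiers, tags that count captured RNA molecules), and the saline library 12453 barcodes and 124343325 UMIs. After filters and removal of called doublets, 6159 CDS cells with a median of 19069 UMIs and 10977 saline cells with a median of 9794 UMIs remained. A set of 25 barcodes occurred in both libraries. The label gives the cell type as islet b cell, but the RNA of many cells carried other hormones or markers, so cells were assigned to classes from marker genes. Beta-like cells, which carried insulin RNA, were 3583 of the CDS and 4874 of the saline cells. The other classes compared between libraries were alpha-like cells with glucagon RNA (884 CDS and 784 saline cells), delta-like cells with somatostatin RNA (250 and 280) and PP-like cells with pancreatic polypeptide RNA (81 and 152). Endothelial-like (242 and 325), macrophage-like (134 and 142) and exocrine acinar-like cells (58 and 91) were compared as well. B-cell-like cells numbered 23 in the CDS and 610 in the saline library and T-cell-like cells 15 and 1037, so levels in both are given for the saline library alone. Pericyte-like cells, from the vessel wall, numbered 19 and 26, and their levels are given without a ratio. Cells left without a class were 13.3% of CDS and 22.4% of saline cells.

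Phosphodiesterases break down the second messengers cyclic AMP and cyclic GMP, and so set how long and where in the cell these signals last. In beta cells cyclic AMP amplifies insulin secretion that glucose has triggered, and Gi-coupled receptors such as the alpha2A-adrenergic receptor lower its synthesis. The enzymes of the Pde4, Pde7 and Pde8 families act on cyclic AMP, Pde5a acts on cyclic GMP, and the enzymes of the Pde1, Pde3 and Pde10 families accept both.

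Promoter sequences are shown for 3 members, Pde10a, Pde4d and Pde4b, whose highest levels lay in delta-like, alpha-like and endothelial-like cells, since cyclic AMP acts on transcription through a motif that can be read in such windows. RefSeq windows on GRCm38.p6, from 250 bases before to 50 bases after a transcription start, matched 8 of the 10 members, with 18 windows in all. The windows are printed 5′ to 3′ along the gene, with capitals on any match to TGACG or TGACGT on either strand. Those shown are 1 window each of Pde10a (chr17:8801495-8801794, plus strand), Pde4d (chr13:108653927-108654226, plus strand) and Pde4b (chr4:102421305-102421604, plus strand). Pde10a and Pde4b have further windows that are not shown, and those hold no match to TGACG or TGACGT.
Pde10a: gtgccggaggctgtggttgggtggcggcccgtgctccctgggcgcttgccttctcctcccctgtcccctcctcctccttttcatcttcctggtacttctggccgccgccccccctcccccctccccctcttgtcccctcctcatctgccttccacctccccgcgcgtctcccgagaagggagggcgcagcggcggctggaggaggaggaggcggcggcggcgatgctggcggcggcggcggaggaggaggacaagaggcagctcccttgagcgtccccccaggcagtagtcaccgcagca
Pde4d: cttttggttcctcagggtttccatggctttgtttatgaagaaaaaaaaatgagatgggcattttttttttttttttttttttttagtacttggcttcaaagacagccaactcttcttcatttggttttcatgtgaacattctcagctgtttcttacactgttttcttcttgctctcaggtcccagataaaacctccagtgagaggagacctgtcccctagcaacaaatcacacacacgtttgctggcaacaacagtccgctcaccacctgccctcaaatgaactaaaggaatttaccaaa
Pde4b: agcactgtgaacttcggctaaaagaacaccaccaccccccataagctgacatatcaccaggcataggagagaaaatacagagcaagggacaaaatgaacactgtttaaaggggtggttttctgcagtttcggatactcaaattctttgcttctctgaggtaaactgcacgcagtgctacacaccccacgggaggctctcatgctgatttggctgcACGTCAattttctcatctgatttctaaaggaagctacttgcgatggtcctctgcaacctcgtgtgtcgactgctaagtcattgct
The motif TGACGTCA, the full cyclic AMP response element, was in 0 of the 18 windows and in 1.79% of the 32851 windows of all genes. TGACGT, which lies within TGACGTCA, was in 1 of the 18, the Pde4b window above, where it is read on the other strand as the capitals ACGTCA, and in 7.51% of all windows. TGACG, which lies within both, was in 3 of the 18, belonging to Pde4b, Pde8a and Pde8b, and in 20.8% of all windows. The Pde10a window has a GC content of 71.3%, the Pde4d window 39.7% and the Pde4b window 47.0%, beside a median of 52.7% over all windows. Counts do not tell which of a gene's starts was used, so the windows describe the sequence only.

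Levels are given as CPM, the UMIs of a gene scaled to 1000000 UMIs of its class in that library, and were compared for 1 gene between classes, never between genes. Each of the 10 members had its own order of classes. Pde4d was highest in alpha-like cells, Pde10a and Pde1c in delta-like cells, Pde5a in beta-like cells, Pde4b and Pde8a in endothelial-like cells and Pde7b in macrophage-like cells, among the 7 classes with enough cells in both libraries. Pde3b was highest in alpha-like cells among these 7, and higher still in B-cell-like and T-cell-like cells of the saline library. Insulin RNA took 41.1% of the UMIs of beta-like cells in the CDS and 35.4% in the saline library, which lowers every other gene's CPM there. A reduced total, without hormone, acinar and mitochondrially encoded genes, left each member's highest class of the 7 the same, and folds against beta-like cells are given on it as well.

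**Figure D1:**
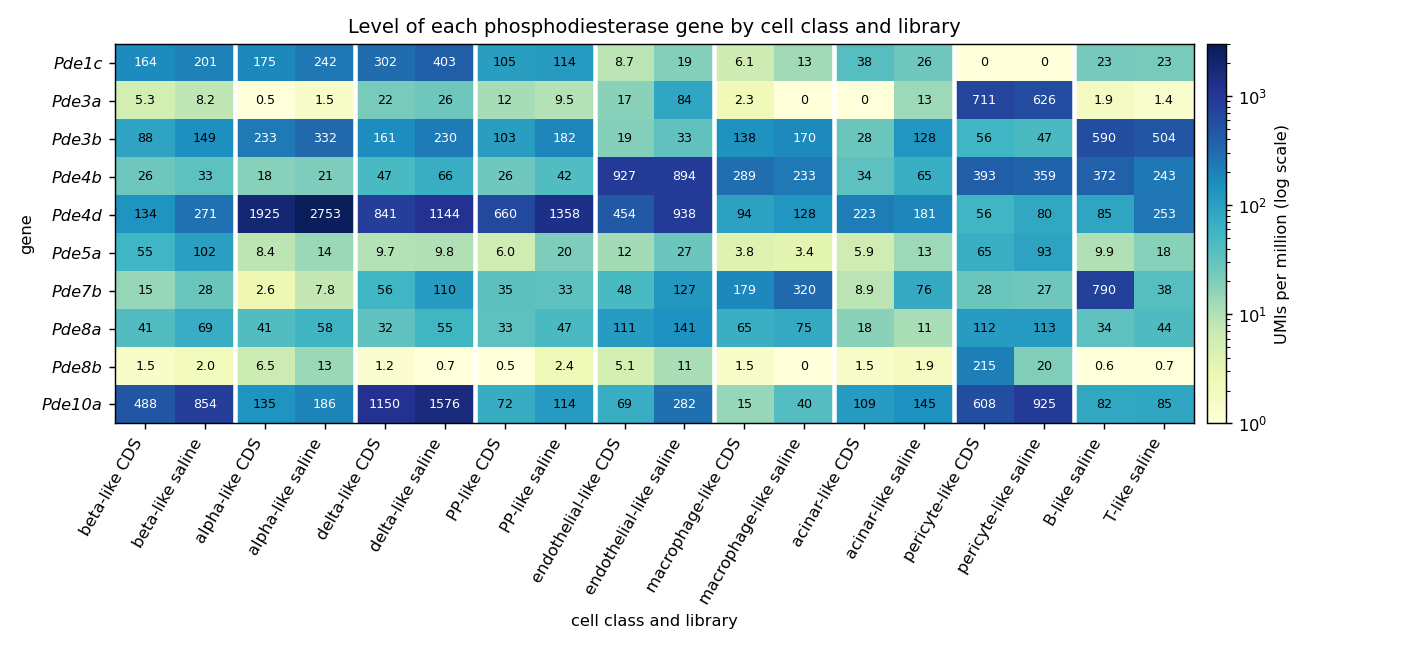
Level of each phosphodiesterase gene (rows) in CPM by cell class and library (columns, CDS left of saline), with the level printed in each cell and a log colour scale on which levels under 1 are drawn as 1. Pde4d stands out in alpha-like cells at 1925 and 2753 CPM in the CDS and saline libraries, and Pde5a in beta-like cells at 54.9 and 102 CPM.

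Pde4d, a cyclic AMP-specific enzyme with many isoforms (ENSMUSG00000021699, chromosome 13, 108449948 to 109953461, plus strand), set alpha-like cells apart from beta-like cells. In alpha-like cells its level was 1925 CPM (95% interval 1899 to 1951) in the CDS library and 2753 CPM (2713 to 2793) in the saline library. In beta-like cells it was 134 CPM (132 to 136) in the CDS and 271 CPM (267 to 274) in the saline library. The level in alpha-like cells was thus 14.4 times (14.0 to 14.7) that in beta-like cells of the CDS library and 10.2 times (9.97 to 10.4) in the saline library, and on the reduced total 9.06 and 7.07 times. PP-like cells (660 and 1358 CPM) and delta-like cells (841 and 1144 CPM) came next, and their ranges over the libraries overlapped. Endothelial-like cells had 454 and 938 CPM, and macrophage-like cells were lowest of the 7 classes at 93.7 and 128 CPM. At 5000 UMIs per cell, 96.1% of 823 alpha-like CDS cells and 99.5% of 732 alpha-like saline cells had a Pde4d UMI, against 31.7% of 120 CDS and 31.6% of 76 saline macrophage-like cells. Without thinning these shares were 97.7% and 99.2% in alpha-like cells (median depth 11964 and 8318 UMIs), against 40.3% and 35.2% in macrophage-like cells (9561 and 5233 UMIs).

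Pde4b, the other cyclic AMP-specific member of that family (ENSMUSG00000028525, chromosome 4, 102087543 to 102607259, plus strand), is known for its part in inflammatory signalling of immune cells. Its level was highest in endothelial-like cells, at 927 CPM (885 to 971) in the CDS library and 894 CPM (854 to 937) in the saline library. Macrophage-like cells had 289 and 233 CPM, and in the saline library B-cell-like cells had 372 CPM and T-cell-like cells 243 CPM. The hormone classes lay far lower, with 47.5 and 66.5 CPM in delta-like, 25.9 and 33.5 CPM in beta-like and 18.1 and 20.7 CPM in alpha-like cells. Endothelial-like cells stood at 35.8 times (33.7 to 38.0) the beta-like level in the CDS library and 26.7 times (25.1 to 28.4) in the saline library, and on the reduced total at 18.8 and 15.8 times. Pde4b and Pde4d thus ran in opposite directions between alpha-like and beta-like cells, with Pde4b at 0.698 times (0.600 to 0.809) the beta-like level in CDS and 0.617 times (0.516 to 0.733) in saline alpha-like cells, or 0.441 and 0.429 times on the reduced total.

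Pde7b, a cyclic AMP-specific enzyme (ENSMUSG00000019990, chromosome 10, 20398004 to 20725078, minus strand), was highest in macrophage-like cells among the classes compared between libraries. In the saline library it was higher still in B-cell-like cells. Macrophage-like cells had 179 CPM (157 to 204) in the CDS and 320 CPM (284 to 360) in the saline library, and B-cell-like cells of the saline library 790 CPM (747 to 834). A group of 69 of the 610 B-cell-like cells held 50% of those UMIs. Among hormone cells it was highest in delta-like cells, at 56.0 and 110 CPM, with 14.7 and 28.0 CPM in beta-like and 2.62 and 7.85 CPM in alpha-like cells. The delta-like level was 3.81 times (3.30 to 4.39) the beta-like level in the CDS library and 3.94 times (3.5001 to 4.42) in the saline library, and 2.45 and 2.80 times it on the reduced total.

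Pde8a and Pde8b encode cyclic AMP-specific enzymes known for a high affinity for their substrate. Pde8a (ENSMUSG00000025584, chromosome 7, 81213596 to 81334533, plus strand) had levels between 32.5 and 40.8 CPM in the 4 of them in the CDS library and between 46.7 and 69.3 CPM in the saline library. Endothelial-like cells had 111 and 141 CPM, or 2.71 times (2.35 to 3.11) and 2.04 times (1.80 to 2.29) the beta-like level. On the reduced total these folds were 1.42 and 1.21, and beta-like cells stood at 1.59 and 1.73 times the alpha-like level, against 1.001 and 1.20 times on all UMIs. Pde8b (ENSMUSG00000021684, chromosome 13, 95024454 to 95250336, minus strand) was the lowest-counted member in beta-like cells, with 146 CDS and 156 saline UMIs, or 1.46 and 1.95 CPM. Alpha-like cells had 6.47 and 13.4 CPM, which was 4.43 times (3.28 to 5.94) and 6.88 times (5.24 to 8.98) the beta-like level, and 2.80 and 4.78 times it on the reduced total. In pericyte-like cells Pde8b had 23 UMIs in the CDS and 3 in the saline library, and 14 of the 23 came from 1 cell. The genes Gm48420 and Gm16243 overlap Pde8b on the other strand, and whether counting used the strand is not given in the sources used here.

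Pde10a, which hydrolyses both nucleotides and is best known from striatal neurons (ENSMUSG00000023868, chromosome 17, 8525372 to 8986648, plus strand), marked delta-like and beta-like cells. Delta-like cells had 1150 CPM (1117 to 1183) in the CDS and 1576 CPM (1532 to 1621) in the saline library, and beta-like cells 488 CPM (484 to 493) and 854 CPM (847 to 860). Alpha-like cells had 135 and 186 CPM and PP-like cells 71.9 and 114 CPM. Beta-like cells thus stood at 3.62 times (3.43 to 3.81) the alpha-like level in the CDS library and 4.60 times (4.35 to 4.87) in the saline library, or 5.73 and 6.62 times on the reduced total, the opposite order to Pde4d. Pericyte-like cells also had it, at 608 CPM from 65 UMIs in the CDS and 925 CPM from 139 UMIs in the saline library. The gene Gm17087 overlaps Pde10a on the other strand.

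Droplets take up free RNA from broken cells, and the insulin genes, which immune cells do not make, gauge how much. Insulin RNA in B-cell-like and T-cell-like cells of the saline library stood at 10.5% and 10.1% of its beta-like level. Pde10a in these classes stood at 9.55% and 9.92% of its beta-like level and Pde1c at 11.4% in each, so both lay near that background. Pde5a stood at 9.66% in B-cell-like and 17.6% in T-cell-like cells. In alpha-like cells, where insulin stood at 4.44% of the beta-like level in the CDS and 5.46% in the saline library, Pde10a stood at 27.6% and 21.7%, above that background. Macrophage-like cells had Pde10a at 2.99% and 4.68% of the beta-like level, below insulin at 4.55% and 5.56%.

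Pde1c, stimulated by calcium and calmodulin (ENSMUSG00000004347, chromosome 6, 56069804 to 56569103, minus strand), was a hormone-cell gene. Its level was 302 CPM (285 to 319) in delta-like cells of the CDS library and 403 CPM (380 to 426) in those of the saline library. Alpha-like cells had 175 and 242 CPM, beta-like cells 164 and 201 CPM and PP-like cells 105 and 114 CPM. The ranges of alpha-like and beta-like cells overlapped, and their order turned on the reduced total, to 217 and 294 CPM in alpha-like and 322 and 351 CPM in beta-like cells. Endothelial-like and macrophage-like cells had at most 18.8 CPM in either library.

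Pde3b and Pde3a encode the cyclic GMP-inhibited family, of which Pde3b is known to carry the effect of insulin on lipolysis in fat cells, and Pde3a is known from heart, platelets and vascular smooth muscle. Pde3b (ENSMUSG00000030671, chromosome 7, 114415281 to 114539251, plus strand) had 233 CPM (224 to 242) in alpha-like cells of the CDS and 332 CPM (318 to 346) in those of the saline library. Delta-like cells had 161 and 230 CPM and beta-like cells 88.1 and 149 CPM, so that alpha-like cells stood at 2.64 times (2.53 to 2.76) and 2.22 times (2.12 to 2.33) the beta-like level, and at 1.67 and 1.55 times on the reduced total. In the saline library B-cell-like cells had 590 CPM and T-cell-like cells 504 CPM, above every hormone class. Endothelial-like cells, at 18.5 and 32.7 CPM, were lowest of the 7 classes in both libraries.

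Pde3a (ENSMUSG00000041741, chromosome 6, 141249269 to 141507448, plus strand) was highest in pericyte-like cells, with 711 CPM from 76 UMIs in CDS and 626 CPM from 94 UMIs in saline pericyte-like cells. Endothelial-like cells had 17.5 CPM in the CDS and 84.2 CPM in the saline library. In the saline library 62 fibroblast-like cells had 82.4 CPM from 61 UMIs. Among hormone classes Pde3a was highest in delta-like cells, at 22.5 and 25.9 CPM, with 5.31 and 8.24 CPM in beta-like and 0.469 and 1.51 CPM in alpha-like cells. Pde3a and Pde3b thus had opposite orders between alpha-like and beta-like cells. Beta-like cells stood at 11.3 times (4.83 to 35.0) the alpha-like Pde3a level in the CDS library, where alpha-like cells held 5 UMIs, and at 5.46 times (2.95 to 11.4) in the saline library, where they held 10, or at 18.0 and 7.85 times on the reduced total. The gene Gm28523 overlaps Pde3a on the other strand.

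Pde5a, the cyclic GMP-specific member (ENSMUSG00000053965, chromosome 3, 122728947 to 122859374, plus strand), was the member most concentrated in beta-like cells among the hormone classes. Its level there was 54.9 CPM (53.5 to 56.4) in the CDS and 102 CPM (100.2 to 104.6) in the saline library. Alpha-like cells had 8.44 and 13.6 CPM, delta-like cells 9.75 and 9.83 CPM and PP-like cells 6.04 and 20.5 CPM. The beta-like level was 6.51 times (5.29 to 8.11) the alpha-like level in the CDS library and 7.54 times (6.12 to 9.38) in the saline library, or 10.3 and 10.8 times on the reduced total. Pericyte-like cells had 65.5 CPM from 7 UMIs and 93.2 CPM from 14 UMIs, with intervals that reached over the beta-like level. The gene 4930447N08Rik overlaps Pde5a on the other strand.

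Likeness in pattern was measured as the Pearson correlation of log2(CPM + 1) over the 18 class sums of at least 50 cells, among 11317 genes. It is a description, since these sums share 2 libraries, their depths and their free RNA. Pde10a was most like Epb41l4a (r = 0.92), Filip1 (0.91) and Grin1 (0.91), and Pde1c most like Pex5l (0.98), Slc44a3 (0.98) and Dach1 (0.97). Pde4d was most like Exoc6b (0.91), Trim2 (0.91) and Dip2c (0.90), and Pde4b most like Bcl10 (0.96), Tnfrsf26 (0.95) and S1pr1 (0.94). Pde3b was most like 4933406I18Rik (0.95), Plcl2 (0.95) and Prkdc (0.91), and Pde3a most like Gucy1a1 (0.92), Map1a (0.87) and Rhoj (0.84). Pde5a was most like Gng12 (0.86), Cttnbp2 (0.83) and Bace2 (0.83), Pde7b most like Cat (0.86), Rtp4 (0.80) and Cib1 (0.80), and Pde8a most like Slc23a2 (0.94), Ell (0.93) and Ndel1 (0.92). Between members the highest values were 0.76 for Pde10a with Pde1c and 0.71 for Pde4b with Pde7b, and the lowest was -0.69 for Pde1c with Pde4b.

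The second comparison set the CDS library against the saline library within each class, after TMM scaling. Where both libraries together held 50 UMIs or more and the 95% interval was clear of 1, a ratio up to 0.8 was counted as lower and one from its reciprocal upwards as higher. In beta-like cells 6 of the 10 members were counted as lower and 0 as higher, where 18.5% of all 15320 genes tested were counted as lower and 28.0% as higher. Plain CPM, under which the median log2 ratio of all genes in beta-like cells moved to -0.35, against 0.06 under TMM, gave 9 members lower and 0 higher, with 48.8% of all genes lower and 9.56% higher. All members are long genes, with spans from 121 kb (Pde8a) to 1504 kb (Pde4d, rank 15 of all genes by span) and a median of 292.6 kb beside 12.3 kb over all genes. Among the genes of at least 100 kb, 59.3% were counted as lower in beta-like cells and 2.76% as higher, so the share of members that were lower was near that of genes of like span. The median log2 ratio was -0.35 over the members, -0.41 over genes of at least 100 kb and 0.06 over all genes.

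**Figure D2:**
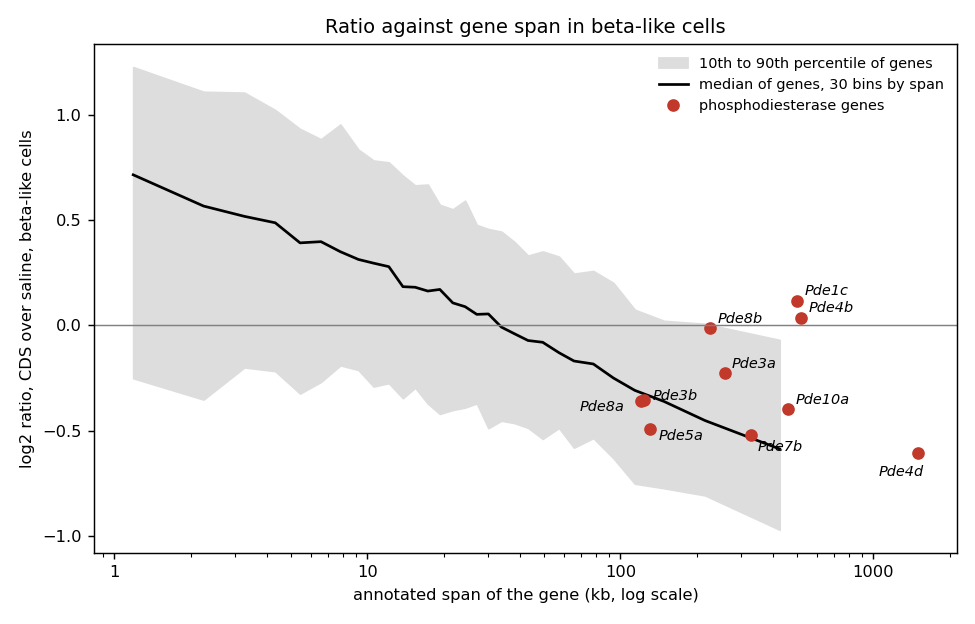
Log2 ratio of the CDS over the saline library in beta-like cells (vertical) against annotated gene span in kb (horizontal, log scale), with the median and the 10th to 90th percentile of genes in 30 bins by span and the 10 phosphodiesterase genes as points. Pde1c at 0.12 and Pde4b at 0.04 lie above the 90th percentile of the bin of longest genes, -0.07, and Pde7b at -0.52 lies on the median line.

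Pde10a in beta-like cells had 562 scaled CPM in the CDS and 742 in the saline library, a ratio of 0.758 (0.749 to 0.767). Pde4d had 154 and 235 scaled CPM, a ratio of 0.657 (0.643 to 0.671), and Pde5a 63.2 and 88.9 scaled CPM, a ratio of 0.711 (0.687 to 0.736). Pde3b stood at a ratio of 0.783 (0.762 to 0.805), Pde7b at 0.697 (0.652 to 0.745) and Pde8a at 0.781 (0.750 to 0.813), and all 6 were thus counted as lower in the CDS library. Pde1c, the calmodulin-stimulated member, had 189 scaled CPM in the CDS and 174 in the saline library, a ratio of 1.08 (1.06 to 1.11), and Pde4b had 29.8 and 29.1, a ratio of 1.03 (0.971 to 1.08). Pde3a at 0.855 (0.761 to 0.960) and Pde8b at 0.991 (0.786 to 1.2503) were not counted either. The median depth of beta-like cells was 27642 UMIs in the CDS and 15888 in the saline library, and with every cell thinned to 5000 UMIs 6 members were again counted as lower and 0 as higher. After each ratio was divided by the median ratio of genes of like span, 0 members were counted as lower and Pde1c, Pde4b and Pde8b as higher. Their adjusted log2 ratios were 0.72, 0.65 and 0.45, and Pde4d and Pde10a, counted as lower before, turned to 0.04 and 0.20. Pde4d lies near the top of the span range, so the genes it was set against were mostly shorter than Pde4d. Of all genes, 16.5% were counted as higher and 15% as lower on that adjusted scale. With 1 library per group, the agent and the library cannot be told apart as sources of the relation with span.

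**Figure D3:**
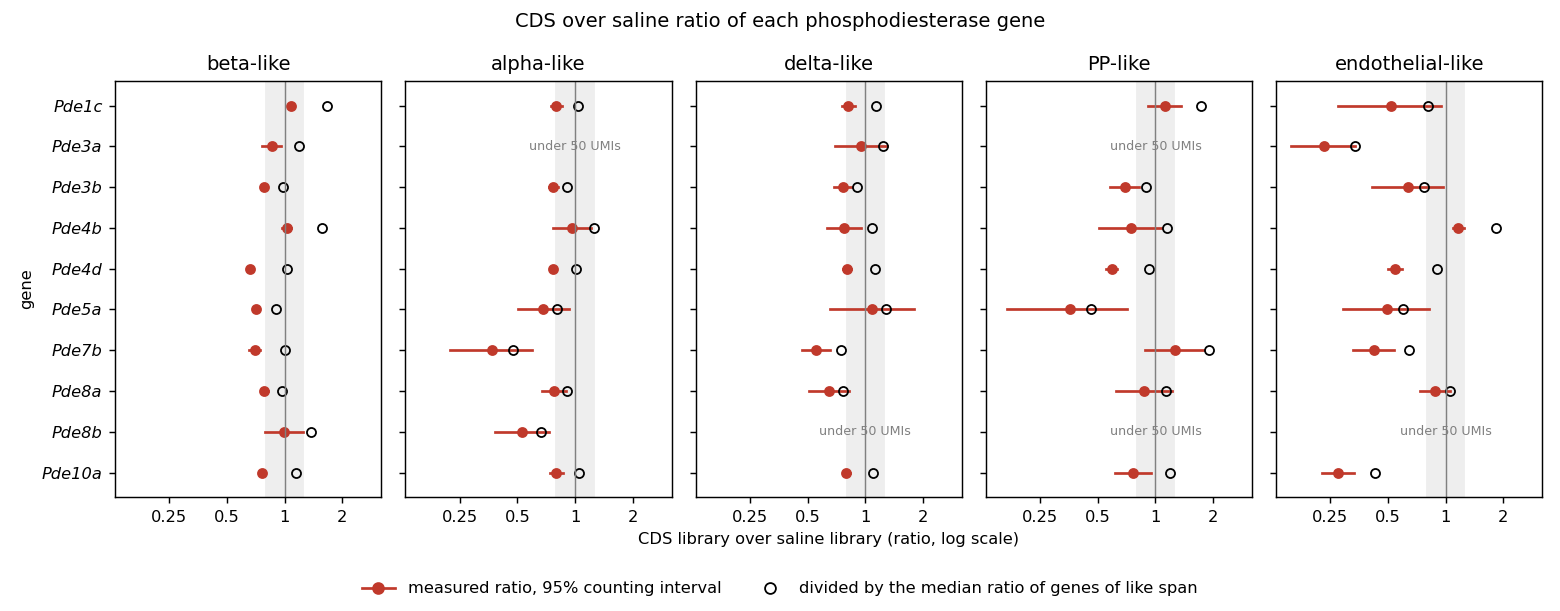
Ratio of the CDS over the saline library (log scale) of each phosphodiesterase gene in 5 cell classes, with filled points and bars for the TMM-scaled ratio and its 95% counting interval, and open points for the ratio divided by the median ratio of genes of like span. The shaded band runs from 0.8 to its reciprocal, and the filled points of beta-like cells lie between 0.657 and 1.08. The open points of Pde1c, Pde4b and Pde8b in beta-like cells lie to the right of the band.

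In alpha-like cells 7 of 9 measured members were counted as lower and 0 as higher, where 11.5% of all genes were counted as lower and 19.6% as higher, and 41.2% of genes of at least 100 kb as lower. Plain CPM gave 8 members lower and 0 higher, with 21.9% of all genes lower and 12.5% higher. Pde4d, the member that set these cells apart, had 2019 scaled CPM in the CDS and 2625 in the saline library, a ratio of 0.769 (0.754 to 0.784). Its adjusted log2 ratio was 0.01. Pde7b at 0.368 (0.224 to 0.593), from 28 CDS and 52 saline UMIs, and Pde8b at 0.529 (0.381 to 0.733), from 69 and 89 UMIs, were still counted as lower after the adjustment for span. Pde1c (0.798), Pde3b (0.772), Pde5a (0.683) and Pde8a (0.778) were counted as lower before it and not after, and Pde4b (0.962) was counted as higher after it. On that scale 8.66% of all genes were counted as lower and 9.64% as higher. Pde10a, at 0.8002 (0.741 to 0.864), lay just outside the limit.

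In delta-like cells 5 of 9 measured members were counted as lower and 0 as higher, beside 11.8% of all genes counted as lower and 15.9% as higher, and 44.6% of genes of at least 100 kb as lower. Plain CPM gave 7 members lower and 0 higher, with 19.6% of all genes lower and 9.87% higher. Pde7b had 58.4 scaled CPM in the CDS and 105 in the saline library, a ratio of 0.554 (0.466 to 0.658), and Pde8a had 33.9 and 52.4, a ratio of 0.647 (0.511 to 0.819). Both were still counted as lower after the adjustment, at log2 ratios of -0.42 and -0.39, with 6.47% of all genes lower and 8.73% higher on that scale. Pde10a, at 1200 and 1510 scaled CPM, had a ratio of 0.795 (0.763 to 0.828), Pde3b 0.762 (0.683 to 0.849) and Pde4b 0.778 (0.635 to 0.953), and none of these was counted after it, with log2 ratios of 0.13 for Pde10a and 0.11 for Pde4b then above 0. Pde4d, at 0.801, and Pde1c, at 0.817, missed the limit.

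PP-like cells had 4 of 8 measured members counted as lower and 0 as higher, beside 16.1% and 17.2% of all genes, and 53.3% of genes of at least 100 kb were lower. Plain CPM gave 6 members lower and 0 higher, with 34.4% of all genes lower and 7.06% higher. The 4 counted as lower under TMM scaling were Pde4d at 0.592 (0.553 to 0.633), Pde3b at 0.691 (0.577 to 0.825), Pde10a at 0.766 (0.614 to 0.952) and Pde5a at 0.359 (0.167 to 0.708). Pde5a rested on 11 CDS and 43 saline UMIs and was still counted after the adjustment for span, at a log2 ratio of -1.11. Pde1c, at 1.12, and Pde7b, at 1.26 (0.884 to 1.80), were counted as higher after it, where 7.84% of all genes were lower and 10.3% higher. Few of the 81 CDS cells carried much of these counts. The richest cell held 43 of 191 UMIs of Pde1c, 14 of 63 of Pde7b and 52 of 131 of Pde10a. Ratios without these cells were not computed. For Pde10a the direction turned with the looser cell filter, to a log2 ratio of 0.09, and after the adjustment, to 0.24.

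Endothelial-like cells had 7 of 9 measured members counted as lower and 0 as higher, beside 13.1% and 21.8% of all genes, and 49.1% of genes of at least 100 kb were lower. Plain CPM gave 8 members lower and 0 higher, with 21% of all genes lower and 11.9% higher. The median log2 ratio of the members was -0.94, against -0.40 over genes of at least 100 kb and 0.08 over all genes. Pde3a had 34 UMIs in the CDS and 170 in the saline library, a ratio of 0.233 (0.156 to 0.338), and Pde10a had 134 and 570 UMIs, a ratio of 0.273 (0.225 to 0.331). Both had high levels in pericyte-like cells above, and 6 of the 325 saline endothelial-like cells held 50% of the Pde3a UMIs and 10 held 50% of those of Pde10a. The 6 pericyte markers summed to 287 CPM in CDS and 316 CPM in saline endothelial-like cells, and 1 of the 6 was at 0 in the CDS library and 0 of the 6 in the saline library. At least 2 of these markers were detected in 33 of the 242 CDS cells (13.6%) and 53 of the 325 saline cells (16.3%).

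Without those cells, an alternative chosen after seeing the data, Pde3a kept 3 of its CDS and 9 of its saline UMIs, and its ratio of 0.355 (0.0618 to 1.42) no longer excluded 1. Pde10a kept 94 and 216 UMIs, and its ratio moved to 0.464 (0.360 to 0.593). Most endothelial-like UMIs of Pde3a thus lay in cells with pericyte markers, and whether doublets of endothelial and pericyte cells that were not called are among them was not tested. Pde7b, at 93 CDS and 256 saline UMIs, had a ratio of 0.422 (0.330 to 0.538), and 0.463 (0.347 to 0.613) without them. Pde4d, at 481 scaled CPM in the CDS and 887 in the saline library, had a ratio of 0.542 (0.50 to 0.588), and 0.606 (0.554 to 0.663) without them. After the adjustment for span, Pde3a, Pde10a, Pde7b and Pde5a were still counted as lower, and Pde4b, with 981 and 845 scaled CPM and a ratio of 1.16 (1.09 to 1.24), was counted as higher, with 9.79% of all genes lower and 11.1% higher on that scale. The remaining members counted as lower before the adjustment were Pde5a at 0.495, Pde1c at 0.520 and Pde3b at 0.634, each from at most 66 UMIs in either library. Pde1c in these cells stood at 5.32% of its beta-like level in the CDS and 9.37% in the saline library. Insulin RNA, the gauge of free RNA, stood at 4.04% and 5.06% there, so Pde1c was close to that background in the CDS library.

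**Figure D4:**
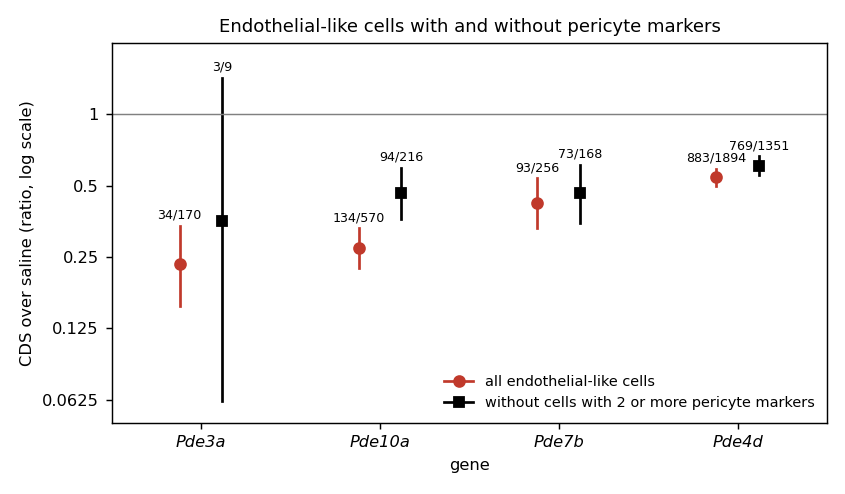
Ratio of the CDS over the saline library (log scale) of 4 phosphodiesterase genes in all endothelial-like cells (circles) and without cells in which 2 or more pericyte markers were detected (squares), with 95% counting intervals and the UMIs in CDS/saline above each bar. The interval of Pde3a crosses 1 once those cells are left out, and the ratio of Pde10a moves to 0.464, against 0.273 with all cells.

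In macrophage-like cells 2 of 6 measured members were counted as lower and 1 as higher, beside 11.0% and 18.4% of all genes. Of genes of at least 100 kb, 28.3% were lower and 3.5% higher there. Plain CPM gave 3 lower and 0 higher, with 21.4% and 10.1% of all genes. Pde4b, known from immune signalling, had 376 UMIs in the CDS and 204 in the saline library, a ratio of 1.43 (1.20 to 1.70), and 1.42 without the richest cell of each library. It stood at 1.24 under plain CPM and was not counted there. Pde7b had 233 and 280 UMIs and a ratio of 0.643 (0.538 to 0.768), and Pde10a 19 and 35 UMIs and a ratio of 0.420 (0.227 to 0.754), at levels that were under the insulin background given above. With classes from clusters the log2 ratio of Pde10a reversed to 0.45, and with cells thinned to 5000 UMIs 0 members were counted as lower. In acinar-like cells 1 of 4 measured members was counted as lower and 1 as higher, beside 15.8% and 15.1% of all genes. Of genes of at least 100 kb, 9.91% were lower and 22.9% higher there, with a median log2 ratio of 0.17. Plain CPM gave 2 lower and 0 higher, with 38.2% and 5.25% of all genes. Pde3b had 19 and 69 UMIs there, a ratio of 0.290 (0.164 to 0.487). Pde4d had 151 and 97 UMIs, a ratio of 1.64 (1.26 to 2.13), but 1 of the 58 CDS cells held 74 of its UMIs, and without the richest cell of each library the ratio was 1.03 (0.738 to 1.43). With classes from clusters its log2 ratio reversed to -0.79.

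The other genes of cyclic nucleotide signalling were read in beta-like cells from lists by role, with TMM scaling unless plain CPM is named. Of all genes tested in these cells, 28.0% were counted as higher and 18.5% as lower, and under plain CPM 9.56% and 48.8%. Plain CPM gave 0 higher and 6 lower among the other phosphodiesterases, 0 and 11 in synthesis, 0 and 13 among effectors and 1 and 10 in regulation and anchoring. Of the 14 other phosphodiesterase genes, 8 were measured, 6 were counted as lower and 0 as higher, with a median log2 ratio of -0.59. Those 6 lay under 20 CPM in both libraries, down to 0.173 scaled CPM in the CDS library. The single one of the 8 at 20 CPM or more was Pde6d, which encodes a carrier of prenylated proteins. It had 21.6 scaled CPM in the CDS and 18.1 in the saline library and a ratio of 1.19, not counted and at 0.901 under plain CPM. Of 15 measured genes of cyclic nucleotide synthesis, 5 were counted as lower and 2 as higher, with a median log2 ratio of -0.15. Adcy9, which encodes an adenylyl cyclase, was counted as lower at 0.577 (0.560 to 0.594). Gnas, the stimulatory G protein gene, stood at 1.18 (1.17 to 1.19), not counted and at 0.889 under plain CPM. The receptor cyclase gene Gucy2c stood at 0.901 and Adcy6 at 0.912, and neither was counted, while under plain CPM both were counted as lower, at 0.679 and 0.688.

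Of 20 measured effector genes, 3 were counted as lower and 2 as higher, with a median log2 ratio of -0.13. Prkg1, the cyclic GMP-dependent kinase gene, stood at 0.532 (0.499 to 0.567), and Rapgef4, the gene of the cyclic AMP sensor Epac2, at 0.660 (0.642 to 0.679). Prkaca, a catalytic subunit gene of protein kinase A, stood at 1.28 (1.20 to 1.35) and the cyclic AMP response modulator gene Crem at 1.27 (1.22 to 1.32), but under plain CPM both lay under 1, at 0.962 and 0.956. The regulatory subunit gene Prkar1a (1.16) and the coactivator gene Crtc1 (0.807) were not counted, but under plain CPM Crtc1 was counted as lower, at 0.608. Among 19 measured genes of phosphodiesterase regulation and anchoring, 6 were counted as higher and 5 as lower, with a median log2 ratio of -0.01. Calm3 and Calm2 encode calmodulin, which activates Pde1c, and were counted as higher at 1.55 (1.51 to 1.59) and 1.47 (1.44 to 1.5046). Pkig, an inhibitor gene of protein kinase A, stood at 1.46 (1.40 to 1.53). Under plain CPM Calm3, Calm2 and Pkig stood at 1.17, 1.11 and 1.10, and none of them was counted. The kinase anchor genes Akap6 and Akap10 were counted as lower at 0.598 (0.557 to 0.642) and 0.687 (0.648 to 0.727). After the adjustment for span, Prkg1, Rapgef4, Akap6, Prkaca and Calm3 were no longer counted, at log2 ratios of -0.27, -0.11, -0.15, 0.26 and 0.30. Adcy9 and Akap10 were still counted as lower, at -0.46 and -0.39, and Crem, Calm2 and Pkig as higher, at 0.53, 0.36 and 0.72, and Gnas was then counted as higher at 0.40.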

How the data were processed

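The deposited matrices hold raw UMI counts per gene and barcode, which the authors made with Cell Ranger 7.1.0, per the file headers. Seurat 4, edgeR and the build mm10 are also named, per the submitters' processing notes. Whether introns or the strand were used in counting, and with which annotation, is not given in the sources used here. Reagents of v3.1 and of v2 chemistry both appear in the labels' protocols.

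The members, gene lists and classes were chosen with earlier results of these data known. Named genes were all 10 members, from each list in beta-like cells up to 6 genes of at least 20 CPM with the largest absolute log2 ratio, and for likeness the 3 genes with the highest correlation. A gene that this rule names is not reported here. Barcodes with at least 500 genes, 1000 UMIs and at most 20% mitochondrial UMIs were kept. Scrublet in Scanpy 1.11.5 (0.8% expected per 1000 barcodes) called 256 CDS and 614 saline doublets, 3.99% and 5.30% of the kept barcodes, which were left out.

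Cells were assigned from shares of hormone UMIs and scores of fixed markers, with at least 3 own markers detected. Beta-like cells had at least 15% insulin UMIs and under 1% of each other hormone. Alpha-like and delta-like cells had at least 2% Gcg or Sst and PP-like cells at least 5% Ppy, with under 12% insulin. Other classes had a marker score of at least 0.3, at least 0.1 above the next. These limits were set after the distributions of hormone shares were seen. Names rest on markers alone.

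UMIs were summed per class and library. Levels carry exact Poisson intervals and ratios the conditional exact interval for Poisson counts in both libraries, each at 95%. Ratios used TMM factors (edgeR 4.0.16, R 4.3.3), and classes needed 50 cells in each library. The ratio calculation was tested on simulated data. Spans came from GENCODE release M21 (32158 of 32285 gene IDs), and the adjustment for span used a running median over 501 genes. Near the ends of the span range this median covered fewer genes. Alternatives were looser and stricter filters and gates, kept doublets, plain CPM, size factors of DESeq2 1.42.0, a reduced total, a mean over cells, cells thinned to 5000 UMIs, Leiden clusters (leidenalg 0.10.2) and other UMI minimums. Tables and figures were made in Python 3.11.15 with pandas 2.3.3, SciPy 1.17.1, NumPy 2.4.6 and matplotlib 3.10.9.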

Additional observations from a re-analysis of the deposited data

Results flagged for a closer look

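Pde4b was counted in opposite directions in different classes, at a ratio of 0.778 in delta-like and 1.43 in macrophage-like cells. In delta-like cells its log2 ratio turned to 0.11 after the adjustment for span. In macrophage-like cells it was not counted under plain CPM or with the reduced total. Pde4d was counted as lower in the CDS library in beta-like (0.657), alpha-like (0.769), PP-like (0.592) and endothelial-like cells (0.542) and as higher in acinar-like cells (1.64). With 1 library per group, none of these differences between classes was tested. In acinar-like cells 2 of 58 CDS cells held 50% of the Pde4d UMIs, and without the richest cell of each library the ratio was 1.03.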

How the results depend on the processing

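Over 79 results and their alternatives, 793 of 931 recomputed values were classed as unchanged and 10 as reversed. The unchanged class allowed for a moderate change in a count of members, such as 6 to 9 lower in beta-like cells under plain CPM. It also took in ratios not counted at first whose direction turned. Among these was Pde8b in beta-like cells, at a log2 ratio of -0.01 before and 0.45 after the adjustment for span. With the adjustment for span, the members counted as lower were 0 in beta-like, 2 in alpha-like, 2 in delta-like, 1 in PP-like and 4 in endothelial-like cells, and those counted as higher were 3, 1, 0, 2 and 1. Among members counted before it, the adjustment reversed log2 ratios to 0.0356 (Pde4d) and 0.20 (Pde10a) in beta-like, 0.0585 (Pde1c) and 0.0106 (Pde4d) in alpha-like, 0.11 (Pde4b) and 0.13 (Pde10a) in delta-like and 0.24 (Pde10a) in PP-like cells. The adjusted values of Pde4d rest on genes that are mostly shorter than Pde4d. In PP-like cells 1 member was higher with the looser filter and with doublets kept, 2 were lower with the stricter gate, and Pde10a reversed to 0.0893 with the looser filter. With classes from clusters 4 members were lower in alpha-like cells, and Pde10a in macrophage-like cells and Pde4d in acinar-like cells reversed, to 0.45 and -0.79; no PP-like cluster formed, so that value is missing. A minimum of 200 UMIs, which tests fewer genes, left 4 lower in alpha-like and 4 in endothelial-like cells, with 1 left among macrophages and 0 in acinar-like cells. Thinning left 4 lower in endothelial-like cells, and 0 in macrophage-like as in acinar-like cells. In macrophage-like cells 1 was lower with the looser filter and with doublets kept, and 0 were higher under plain CPM and with the reduced total. In acinar-like cells plain CPM gave 2 lower and 0 higher, a mean over cells 2 and 2, and the reduced total, clusters and no UMI minimum 2 lower each. For the changes under the other settings, the cause was not tested.

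No paired analysis was possible because each group has 1 library and the labels give no replicate numbers, and for the same reason leaving out a library was not possible. Levels based on a few UMIs, such as Pde3a in alpha-like cells with 5 CDS and 10 saline UMIs, are limited by depth.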
